A study of Mus musculus with 39 samples.

Results

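Epididymal white adipose tissue (eWAT), a fat depot that lies beside the epididymis, was compared with quadriceps, a fast-twitch limb muscle, in 9 of the 39 libraries of the series. All 9 came from male C57BL/6J mice fasted for 16 h. The mice had been given a control diet (CD, 10% of energy as fat) between weeks 6 and 7, had eaten chow before it and after it up to week 10, and had eaten a high-fat diet as adults up to week 22. Of the 6 libraries labelled eWAT, CD and fasted, 3 were selected on the measured level of Gpx5, a secreted peroxidase of the epididymis, which lay below 100 CPM (counts scaled to a common library size, here the plain total). The 6 quadriceps libraries of the same diet and feeding state were taken whole. Gpx5 stood at 11.4, 5.31 and 16.6 CPM in the chosen fat libraries, called eWAT 1, 2 and 3 below, and at 18012, 18561 and 19052 CPM in the other 3, so no library lay near the limit. It was at most 0.125 CPM in quadriceps. These Gpx5 values chose the libraries and are not tested. Both tissues therefore came from mice fed a high-fat diet as adults. Nothing in the labels ties a library to its own animal or a fat library to a muscle library, so the spread behind the p-values is that between libraries and may be technical. No extraction or library batch is given, so tissue and preparation batch cannot be told apart.

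White fat stores triglyceride in a droplet that fills the adipocyte, releases fatty acids and glycerol in a fast through lipases under beta-adrenergic control, and secretes hormones such as adiponectin and leptin. Skeletal muscle fibres are packed with sarcomeres, in which myosin thick filaments pull on actin thin filaments when calcium leaves the sarcoplasmic reticulum. Fast fibres draw their ATP first from phosphocreatine and from glycogen, while mitochondria oxidise pyruvate and fatty acids, and in a fast muscle shifts towards fatty acids and breaks down protein through the ubiquitin ligases Trim63 and Fbxo32.

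Each library held 1 integer read count per Ensembl gene. Total counts ran from 11855211 to 14596745 in eWAT and from 6730219 to 10633397 in quadriceps, and 19984 to 20626 genes had a count in eWAT against 15951 to 17336 in quadriceps. The counts were far more concentrated in muscle. The 10 most abundant genes took 37.5% to 45.0% of a quadriceps library and 14.0% to 17.5% of an eWAT library, and the median read fell within the 16 to 29 most abundant genes in quadriceps and the 435 to 462 most abundant in eWAT. Gm42418, which overlaps ribosomal RNA sequence, stood at 34008 to 57399 CPM on plain library size in eWAT and at 111502 to 197510 CPM in quadriceps. It counts towards the concentration just given, which was not recomputed without it. Its part in the other results was not tested beyond a fit that left out this gene and the mitochondrial genome transcripts. All other levels below are CPM on library sizes scaled by the trimmed mean of M values (TMM), a scaling that sets most genes level between tissues. In bulk tissue, fewer cells of a type and less RNA per cell cannot be told apart.

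Most genes differed between the tissues. Of 13920 genes tested with edgeR's quasi-likelihood test, 5428 (39.0%) were higher in eWAT and 4821 (34.6%) higher in quadriceps at an adjusted p below 0.05. A test against a 2-fold difference left 3336 genes (24.0%) higher in eWAT and 2535 (18.2%) higher in quadriceps, and these shares are the background for every list below. The groups did not overlap for 9304 genes (66.8%). At the other end, 3278 genes (23.5%) had a 95% interval that lay within 2-fold. The split depends on the scaling. With TMM 53.0% of the called genes and 56.8% of those beyond 2-fold were higher in eWAT, while with plain library totals 86.6% and 88.6% were, since the median log2 difference of all genes moved from 0.13 to 1.57, a shift of 1.44. Fold changes are therefore given as log2, eWAT minus quadriceps, with a standard error (SE) calculated back from the F statistic of the test. The lists that change sign under library totals are named as such. Fat libraries also varied more. Over 5972 genes averaging a log2 CPM of 4 or more, the median SD of log2 CPM among libraries was 0.231 in eWAT and 0.184 in quadriceps.

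The 4 marker genes separated the tissues as labelled. Adipoq, which encodes adiponectin (ENSMUSG00000022878, 16:23146536-23158028, GRCm38), stood at 2101, 2021 and 1981 CPM in eWAT and at 6.07 to 76.5 CPM (median 26.1) in quadriceps, a log2 difference of 5.87 ± 0.80 SE (edgeR adjusted p = 2.94e-04). Cfd, the serum protease adipsin (ENSMUSG00000061780, 10:79890853-79892655), stood at 7370, 7657 and 8319 CPM against 29.3 to 699 CPM (median 240.0), a difference of 4.68 ± 0.94 (edgeR adjusted p = 0.00252). The fat libraries agreed closely for both genes, and quadriceps libraries differed among themselves by more than 10-fold. Ckm, muscle creatine kinase (ENSMUSG00000030399, 7:19404776-19422841), was at 2.42, 0.640 and 1.05 CPM in eWAT and at 39310 to 48190 CPM (median 44610) in quadriceps, a difference of -14.96 ± 0.55 (edgeR adjusted p = 8.39e-12). Acta1, skeletal alpha-actin (ENSMUSG00000031972, 8:123891769-123894751), was at 5.13, 36.9 and 82.0 CPM against 52300 to 70210 CPM (median 61370), a difference of -10.54 ± 1.06 (edgeR adjusted p = 2.11e-05). None of the 4 groups of values overlapped. Acta1 shares nearly identical coding sequence with other actins, so its low counts in fat may include reads of those genes.

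**Figure D1:**
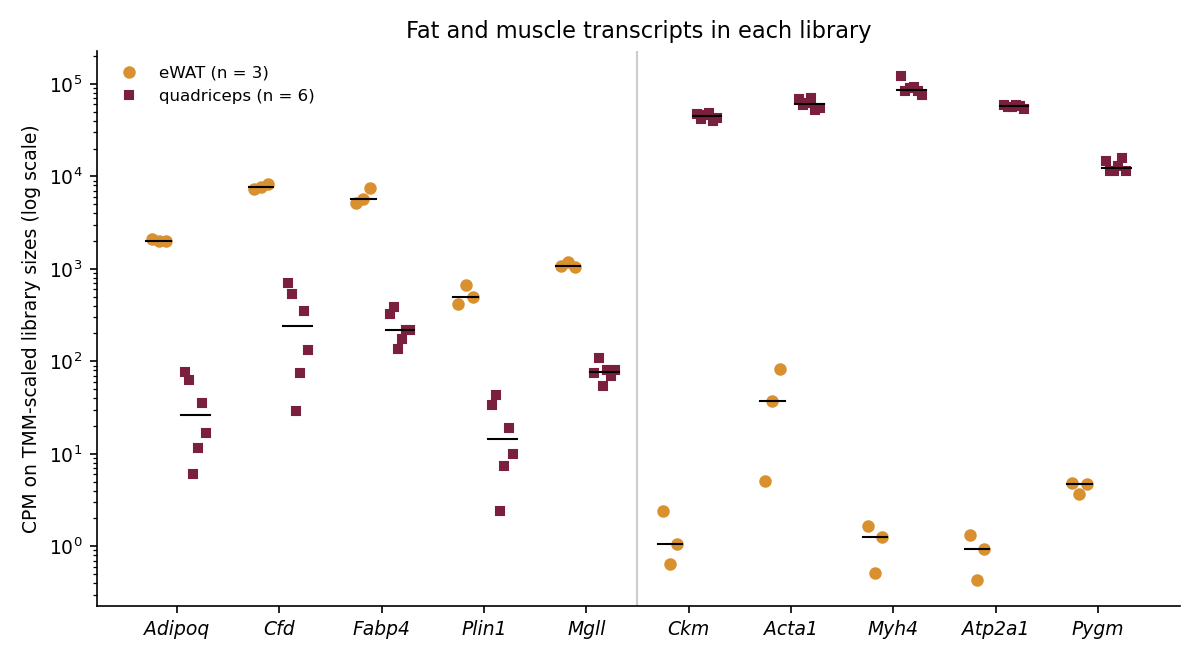
Expression of 5 fat genes (left) and 5 muscle genes (right) in each library, in CPM on TMM-scaled library sizes on a log axis; circles are the 3 eWAT libraries, squares the 6 quadriceps libraries and lines the group medians. Ckm lies at 0.640 to 2.42 CPM in eWAT and at 39310 CPM or more in quadriceps, while Adipoq spans 6.07 to 76.5 CPM among the quadriceps libraries.

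The promoters of 2 of these markers are printed because they stand for the opposite tissues, with the 250 bases before the RefSeq start (GRCm38.p6). Searched on both strands were CAGCTG (an E-box bound by the MyoD family), the MEF2 site, the CArG box bound by SRF, TATAAA, TTGCNNAA (a C/EBP site), the DR1 repeat bound by PPAR with RXR, and CCAAT, and the matches are in capitals. The Adipoq promoter (16:23146286-23146535, plus strand) has CAGCTG beginning 61 bases before the start and CCAAT beginning 34, 27 and 7 bases before it:
Adipoq: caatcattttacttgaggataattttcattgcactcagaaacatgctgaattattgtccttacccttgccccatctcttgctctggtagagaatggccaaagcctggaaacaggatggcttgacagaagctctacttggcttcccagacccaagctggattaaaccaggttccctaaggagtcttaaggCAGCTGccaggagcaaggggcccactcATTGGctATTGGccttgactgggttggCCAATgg
The Acta1 promoter (8:123894776-123895025, minus strand) has CAGCTG beginning 221 bases, a CArG box 73 bases and TATAAA 7 bases before the start:
Acta1: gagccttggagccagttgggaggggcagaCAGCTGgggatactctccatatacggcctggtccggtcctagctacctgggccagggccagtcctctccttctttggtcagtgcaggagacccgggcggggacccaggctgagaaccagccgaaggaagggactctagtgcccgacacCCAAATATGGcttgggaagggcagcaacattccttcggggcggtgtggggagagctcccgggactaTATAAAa
In the same window, CAGCTG was found in 4270 of 32841 promoters and in 23 of the 63 promoters found for 54 of the 76 genes of the thick filament, thin filament and calcium-handling lists (36.5%). It was found in 7 of the 46 promoters of the droplet, lipolysis and secreted-protein lists (15.2%). The MEF2 site was in 2.92% of all promoters, 17.5% of those of the muscle lists and 0 of 46 of the fat lists, and the CArG box in 1.47%, 11.1% and 2.17%. TATAAA was in 12.4%, 19.0% and 6.52% of the same sets and CCAAT in 33.9%, 30.2% and 21.7%. TTGCNNAA was in 9.57% of all promoters, 7.94% of those of the muscle lists and 6 of 46 of the fat lists, and the PPAR repeat, present in 0.0335% of all promoters, was in no promoter of either. Among the markers not printed, the Ckm promoter had only CAGCTG, beginning 249 bases before its start, and the Cfd promoter had no match. A match is a description of the letters and not evidence of binding.

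Genes that release stored fat were mostly higher in eWAT, 11 of 14 beyond 2-fold against 0 in quadriceps, with a median log2 difference of 3.72 against 0.13 over all genes. Mgll, the lipase of monoglycerides (6:88724412-88828360), stood at 1063, 1191 and 1044 CPM in eWAT and at 54.6 to 109 CPM (median 76.8) in quadriceps, a difference of 3.82 ± 0.18 (edgeR adjusted p = 1.22e-10). Aqp7, the channel through which glycerol leaves the adipocyte, stood at 143, 141 and 148 CPM against a quadriceps mean of 19.1 ± 4.76 CPM (SD, n = 6). Abhd5, the activator of adipose triglyceride lipase, differed less, by 1.40 ± 0.14 (edgeR adjusted p = 3.07e-07), and Pnpla2, the lipase itself, by 0.98 ± 0.17, which did not pass the 2-fold test. Adrb3, the beta-3 adrenergic receptor, had the largest difference of the list and stood at 977, 510 and 721 CPM in eWAT and at 0.552 to 13.9 CPM (median 3.66) in quadriceps, and Lipe, hormone-sensitive lipase, at 1204, 1464 and 1265 CPM against 55.9 to 192 CPM (median 98.2). Pnpla2, Adrb3 and Lipe were named after their values were seen.

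Secreted proteins of the adipocyte followed the same direction, with 12 of 14 tested members beyond 2-fold in eWAT, 1 in quadriceps and a median of 4.34. Agt, the angiotensin precursor, stood at 369, 419 and 354 CPM in eWAT and at 15.5 to 28.5 CPM (median 21.4) in quadriceps, a difference of 4.13 ± 0.20 (edgeR adjusted p = 2.29e-10). Rarres2, the precursor of chemerin, differed by 3.32 ± 0.15 (edgeR adjusted p = 7.76e-11). Angptl4, the fasting-induced inhibitor of lipoprotein lipase, stood at 476, 572 and 605 CPM against 40.3 to 87.0 CPM (median 55.1), a difference of 3.26 ± 0.20. Lep, the hormone of fat mass, was the most uneven of the fat hormones, at 12.2, 344 and 160.0 CPM in eWAT and at most 9.07 CPM in quadriceps. Its lowest fat library was still above every muscle library, but by a small margin. The member higher in quadriceps was Nampt, an enzyme of NAD synthesis that is also secreted, at 26.4, 34.8 and 39.8 CPM in eWAT and 83.4 to 102.4 CPM in quadriceps. That difference of -1.47 ± 0.15 became -0.02 with library totals. Lep and Nampt were named after their values were seen.

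Lipid droplet proteins divided between the tissues, with 5 of 11 beyond 2-fold in eWAT and 3 in quadriceps (median 1.17). Plin1, the perilipin that guards the droplet of the adipocyte, stood at 414, 676 and 501 CPM in eWAT and at 2.39 to 43.0 CPM (median 14.4) in quadriceps, a difference of 4.77 ± 0.78 (edgeR adjusted p = 8.18e-04). Plin2, the perilipin of many cell types, differed by 2.66 ± 0.20 and Bscl2, the droplet-forming protein seipin, by 2.91 ± 0.22. Plin5, the perilipin of oxidative tissues, went the other way, at 23.1, 17.4 and 13.2 CPM in eWAT against a quadriceps mean of 96.2 ± 30.5 CPM (SD, n = 6), a difference of -2.42 ± 0.36 (edgeR adjusted p = 1.80e-04). Per kb of exon, Plin4 made up 57.5% to 73.1% of perilipin counts in eWAT and 67.4% to 79.0% in quadriceps. Plin1 made up 16.5% to 19.7% against 0.211% to 3.36%, and Plin5 0.947% to 2.45% against 8.80% to 19.98%.

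Fatty acid synthesis was beyond 2-fold in eWAT for 9 of 15 tested members and in quadriceps for 1 (median 1.85), and triglyceride synthesis for 7 and 3 of 15 (median 1.59, or 1.01 without eWAT 1). Gpat3, which makes lysophosphatidic acid in the adipocyte, stood at 45.0, 46.0 and 36.3 CPM in eWAT and at 4.97 to 7.46 CPM (median 6.42) in quadriceps, a difference of 2.76 ± 0.16 (edgeR adjusted p = 1.38e-09). Mogat1, a monoacylglycerol acyltransferase, had 561 counts over the eWAT libraries and 1 in quadriceps, a ratio of 286.5 with a 95% counting interval of 51.2 to 11340. Pgd, of the pentose phosphate pathway that supplies NADPH, differed by 1.82 ± 0.19, while Me1, malic enzyme and another NADPH source, was higher in quadriceps by TMM, at -1.30 ± 0.14, and turned to 0.15 with library totals. Fasn, fatty acid synthase itself, named after its values were seen, overlapped between the groups, at 143, 174 and 180.0 CPM in eWAT and 32.4 to 302 CPM in quadriceps (0.32 ± 0.67, edgeR adjusted p = 0.684). Of the genes for fatty acid uptake and activation, 10 of 16 were beyond 2-fold in eWAT and 2 in quadriceps (median 2.17). Cavin1, a coat protein of caveolae, differed by 2.81 ± 0.14 (edgeR adjusted p = 2.19e-10) and Gpihbp1, the endothelial anchor of lipoprotein lipase, by 2.12 ± 0.13. The 2 members on the muscle side were Fabp3, the fatty acid carrier of muscle, and Acsl6, an acyl-CoA synthetase, which was at most 0.0840 CPM in eWAT and 23.0 ± 2.34 CPM (SD, n = 6) in quadriceps.

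Of the adipogenic transcription factors, 6 of 17 were beyond 2-fold in eWAT and 5 in quadriceps (median 0.34), or 9 and 2 under library totals (median 1.77). Pparg, the receptor that drives fat cell formation, stood at 114.3, 101.7 and 114.5 CPM in eWAT and at 2.37 to 9.76 CPM (median 5.32) in quadriceps, and Cebpa, its partner, at 246, 308 and 282 CPM against 5.34 to 33.1 CPM. Both were named after their values were seen. Ebf1, an early factor of the lineage, differed by 3.12 ± 0.22 and Nr1h3, the sterol receptor LXR alpha, by 2.06 ± 0.14. Stat5b, which carries growth hormone signals in both tissues, stood at 47.8, 60.8 and 47.9 CPM in eWAT and at 602 ± 76.8 CPM (SD, n = 6) in quadriceps, a difference of -3.53 ± 0.18 (edgeR adjusted p = 3.82e-10).

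The contractile apparatus was close to absent from the chosen fat libraries. All 18 tested members of the thick filament list were beyond 2-fold in quadriceps, with a median of -11.86, and their summed level was 17.1, 23.7 and 19.3 CPM in eWAT against 119100 to 164300 CPM in quadriceps. Genes near 0 in eWAT, in this list and in the muscle lists below, passed the count filter only through quadriceps. The number of such genes beyond 2-fold is therefore not read as a result. Myh4, the fast IIB myosin heavy chain (11:67238029-67260446), stood at 1.66, 0.512 and 1.26 CPM in eWAT and at 75450 to 122100 CPM (median 86640) in quadriceps, a difference of -16.26 ± 0.55 (edgeR adjusted p = 4.15e-12). Per kb of exon it made up 88.2% to 97.5% of sarcomeric heavy chain counts in quadriceps, Myh1, the IIX form, 2.26% to 8.38%, Myh2, the IIA form, 0.240% to 3.25%, and Myh7, the slow form, at most 0.159%. Reads may be split among these heavy chains, which are closely alike in sequence. Myom2, an M-band protein, had 0 counts in all 3 eWAT libraries and 2401 ± 177 CPM (SD, n = 6) in quadriceps. Against a floor of 3 counts over the 3 eWAT libraries it was at least 58900-fold higher in quadriceps.

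Thin filament, titin and Z-disc genes were beyond 2-fold in quadriceps for 32 of 34 members (median -11.66, or -10.78 with the 3 genes without an eWAT count at that floor). Actn3, the alpha-actinin of fast fibres, stood at 1.59, 2.69 and 2.48 CPM in eWAT and at 18290 to 23020 CPM (median 20550) in quadriceps, a difference of -13.16 ± 0.35. Ttn, the titin spring (2:76703980-76982547), was at 0.264, 0.0426 and 0 CPM against 16420 ± 3008 CPM (SD, n = 6). The 2 members that did not pass were Tpm3, a tropomyosin also used by other cells, which was higher in eWAT at 1.45 ± 0.41, and Tnnc1, the troponin C of slow fibres, at 2.004 to 5.209 CPM in eWAT and 1.14 to 27.9 CPM in quadriceps. Of the excitation and calcium genes, 21 of 23 tested were beyond 2-fold in quadriceps (median -11.05). Ryr1, the calcium release channel, stood at 0.302, 0.640 and 0.420 CPM against 6534 to 8441 CPM (median 7643), a difference of -14.02 ± 0.35 (edgeR adjusted p = 4.48e-13). Cacna1s, the voltage sensor that opens it, had 0 counts in eWAT and 1524 ± 124 CPM in quadriceps, at least 37210-fold more. Clcn1, the muscle chloride channel, and Srl, the reticulum protein sarcalumenin, differed by -11.05 ± 0.26 and -11.64 ± 0.28.

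Genes of the neuromuscular junction were beyond 2-fold in quadriceps for 9 of 11 tested members (median -5.41), at far lower levels. Musk, the kinase that gathers acetylcholine receptors, had 1 count over the eWAT libraries and 7.72 ± 1.45 CPM (SD, n = 6) in quadriceps, a ratio of 569.8 with a 95% counting interval of 101.5 to 22580, and Rapsn, which anchors the receptors, differed by -7.04 ± 0.24. Agrn, the nerve-derived and widely expressed ligand, was not among them. The dystrophin complex divided by member, with 11 of 15 beyond 2-fold in quadriceps and 1 in eWAT (median -2.96). Sgca, alpha-sarcoglycan, stood at 0.264, 0.384 and 0.168 CPM in eWAT and at 279 ± 17.5 CPM in quadriceps (-9.95 ± 0.25, edgeR adjusted p = 4.64e-13). Utrn, the dystrophin relative of other tissues and named after its values were seen, was the member higher in eWAT, at 1.62 ± 0.17.

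Fuel genes of fast fibres were higher in quadriceps. Glycolysis showed 11 of 19 tested members beyond 2-fold in quadriceps and 2 in eWAT (median -3.25), and its summed level was 2551 to 2968 CPM in eWAT and 61650 to 85220 CPM in quadriceps. Eno3, the muscle enolase, stood at 15.6, 14.0 and 17.5 CPM in eWAT and at 6455 to 8506 CPM (median 7232) in quadriceps, a difference of -8.88 ± 0.25. The 2 members on the fat side were Pgam1 at 2.43 ± 0.18 and Pfkp at 2.60 ± 0.20, both forms of enzymes that muscle makes from other genes. Glycogen metabolism gave 11 of 18 members beyond 2-fold in quadriceps and 4 in eWAT (median -3.23). Pygm, muscle glycogen phosphorylase, stood at 4.87, 3.71 and 4.75 CPM in eWAT and at 11500 to 15850 CPM (median 12270) in quadriceps, a difference of -11.52 ± 0.32 (edgeR adjusted p = 7.45e-13). Of the 8 genes for phosphocreatine, adenylate and myoglobin, 6 were beyond 2-fold in quadriceps and 2, Ckb and Ampd2, in eWAT, of which Ampd2 lost that call without eWAT 1 (1.45 and 1.34). Ampd1, the muscle AMP deaminase, differed by -13.71 ± 0.43, and Ckmt2, the mitochondrial creatine kinase of muscle, had 0 counts in eWAT and was at least 38160-fold higher in quadriceps.

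Regulators of muscle identity were beyond 2-fold in quadriceps for 17 of 18 members (median -5.38, or -5.13 with the 5 genes without an eWAT count at the floor). Those 5 genes passed the count filter only through quadriceps, so this count is not read as a result. Myf6, a muscle regulatory factor of mature fibres, and Mstn, the growth inhibitor myostatin, had 0 counts in the 3 eWAT libraries and 81.7 ± 13.3 and 49.8 ± 7.09 CPM (SD, n = 6) in quadriceps, at least 1997-fold and 1207-fold more. Mef2c, a factor also used by other cells, was present in both, at 7.10, 7.59 and 10.5 CPM in eWAT and 179 to 278 CPM (median 208) in quadriceps (-4.68 ± 0.22, edgeR adjusted p = 1.22e-10). The member that did not pass was Ppargc1b, a coactivator of mitochondrial genes, at 0.03.

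**Figure D2:**
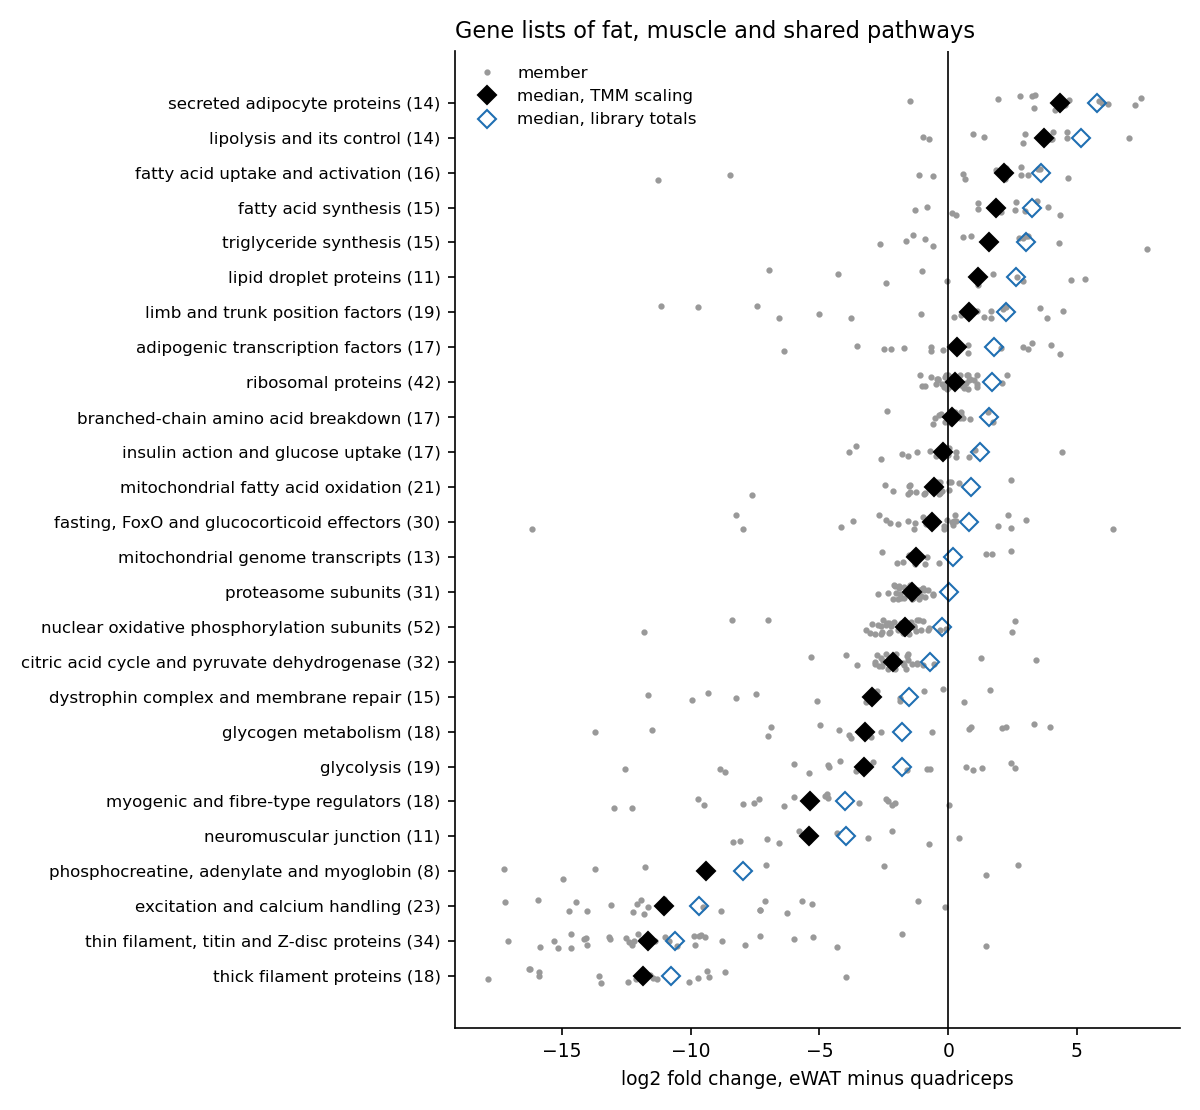
Log2 difference between eWAT and quadriceps for the tested members of 26 gene lists (grey points; the number tested is in brackets), ordered by the list median under TMM scaling (filled diamonds), with the median under plain library totals as open diamonds. Thick filament genes centre at -11.86 and secreted adipocyte proteins at 4.34, and the open diamonds lie to the right of the filled ones, across 0 for 5 lists.

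Mitochondrial genes were higher in quadriceps with TMM, but by far less than the sarcomere, and several of these directions turn with the scaling. Citric acid cycle and pyruvate dehydrogenase genes were beyond 2-fold in quadriceps for 26 of 32 members (median -2.15, or -0.70 with 7 of 32 under library totals), and nuclear oxidative phosphorylation subunits for 42 of 52 (median -1.67, or -0.24 with 8 of 52). Idh3a, of the citric acid cycle, stood at 37.1, 38.2 and 29.6 CPM in eWAT and at 526 to 584 CPM (median 543) in quadriceps, a difference of -3.97 ± 0.16. Pdk4, the kinase that holds pyruvate back in a fast, named after its values were seen, stood at 45.5, 108 and 109 CPM against 3020 to 4393 CPM (median 3444). Mitochondrial genome transcripts were beyond 2-fold in quadriceps for 5 of 13 and in eWAT for 1, with a median of -1.24 that turned to 0.18 under library totals. Without eWAT 1 these counts were 8 and 0, with a median of -1.60. mt-Nd1 stood at 2303, 1072 and 1466 CPM in eWAT and at 4728 to 7525 CPM (median 6527) in quadriceps (-1.99 ± 0.25, edgeR adjusted p = 5.24e-06). The member on the fat side was mt-Co2, at 630, 202 and 103 CPM against 35.7 to 89.3 CPM, highest in eWAT 1.

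Fatty acid oxidation genes were divided: 8 of 21 were beyond 2-fold in quadriceps, 1 in eWAT and 10 had an interval within 2-fold, with a median of -0.55 that turned to 0.88 under library totals. The largest difference was that of Cpt1b, the muscle form of the enzyme that lets fatty acids into mitochondria (15:89416405-89425863), at 0.453, 0.384 and 0.336 CPM in eWAT and 69.8 to 94.4 CPM (median 78.4) in quadriceps, a difference of -7.62 ± 0.21 (edgeR adjusted p = 7.42e-13). Cpt1a, the form of liver and most other tissues, was the member on the fat side, at 190.4, 46.0 and 35.6 CPM against 14.4 to 21.2 CPM (2.44 ± 0.50, edgeR adjusted p = 0.00233). Its highest value fell in eWAT 1, and without that library the difference was 1.28. Branched-chain amino acid breakdown had 12 of 17 tested members within 2-fold by TMM (median 0.17), while under library totals 12 of 17 were beyond 2-fold in eWAT (median 1.60). Bckdk, the kinase that restrains it, was higher in quadriceps at -2.39 ± 0.14, and Hibch and Bckdhb were higher in eWAT at 1.73 ± 0.18 and 1.55 ± 0.19.

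Genes of insulin action had a median of -0.21, which turned to 1.24 under library totals and 0.06 under upper-quartile scaling, with 5 of 17 tested members beyond 2-fold in quadriceps and 1 in eWAT. Slc2a4, the insulin-responsive glucose transporter GLUT4 (11:69942539-69948188), stood at 41.6, 55.9 and 49.5 CPM in eWAT and at 636 to 798 CPM (median 706) in quadriceps, a difference of -3.87 ± 0.17. Tbc1d1, which holds GLUT4 vesicles back in muscle, differed by -3.58 ± 0.24 and Foxo4 by -2.60 ± 0.14. Fasting, FoxO and glucocorticoid effectors also turned, from -0.64 to 0.80, with 11 of 30 beyond 2-fold in quadriceps and 5 in eWAT. Fbxo32, the ubiquitin ligase atrogin-1, stood at 8.98, 9.08 and 7.81 CPM in eWAT and at 2172 to 3134 CPM (median 2541) in quadriceps (-8.23 ± 0.25, edgeR adjusted p = 1.92e-12), and Trim63, its partner MuRF1, had 2 counts over the eWAT libraries against 2722 ± 719 CPM (SD, n = 6) in quadriceps, a ratio of 96700 with a 95% counting interval of 26770 to 798500. Ucp2, an uncoupling protein relative, was on the fat side, at 126, 134 and 126 CPM against 13.6 to 17.5 CPM (3.01 ± 0.12). Proteasome subunits were beyond 2-fold in quadriceps for 20 of 31, with a median of -1.39 that turned to 0.05 and a count of 1 under library totals. Ribosomal proteins had 26 of 42 members within 2-fold and a median of 0.27, or 1.70 under library totals. Rpl3 was an exception at 2.28 ± 0.14, beside its muscle paralogue Rpl3l below.

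Within a library, the share of a muscle-specific gene in a pair of paralogues does not depend on scaling between libraries. In 28 pairs of a widely used and a muscle form, the muscle form's share of the pair's counts per kb of exon was higher in every quadriceps library than in every eWAT library for all 28. It was the more abundant of the pair in all 6 quadriceps libraries for 27 pairs, and the wide form was in all 3 eWAT libraries for 25. The pairs were chosen for a member known as a muscle form, with earlier results of these data known. These counts therefore describe the chosen pairs and are not a test. Creatine kinase was among the widest apart: Ckm made up 99.97% to 99.99% of Ckm and Ckb in quadriceps and 1.28% to 7.21% in eWAT. For the translation factors Eef1a2 and Eef1a1 the muscle form made up 87.3% to 91.5% and at most 0.0387%, and for the ribosomal proteins Rpl3l and Rpl3 93.9% to 96.1% and at most 0.0902%. Fabp3 made up 84.0% to 96.1% of Fabp3 and Fabp4 in quadriceps and at most 0.0332% in eWAT. The 3 subunits of cytochrome c oxidase with muscle forms did the same, Cox6a2 at 87.3% to 97.1% against at most 0.167%, Cox8b at 91.8% to 96.3% against at most 2.54%, and Cox7a1 at 63.0% to 69.9% against at most 2.33%.

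Some pairs switched only in part. Acacb, the mitochondrial acetyl-CoA carboxylase whose product malonyl-CoA restrains fatty acid entry, made up 97.7% to 99.3% of its pair with Acaca in quadriceps and still 87.0% to 90.3% in eWAT, where it stood at 508, 474 and 384 CPM. Slc25a4, the ATP and ADP carrier of muscle and heart, made up 99.1% to 99.4% in quadriceps and 43.3% to 60.9% in eWAT, and Pfkm, the muscle phosphofructokinase, 99.8% to 99.9% and 43.5% to 46.0%. Cav3, the caveolin of muscle, was the pair in which quadriceps kept most of the wide form, with 46.4% to 70.6% against 0 in eWAT, and Cavin4 made up 67.5% to 73.5% against at most 0.321%. Fbp2, the muscle fructose bisphosphatase, made up at least 99.85% in quadriceps, and 0.460%, 65.0% and 2.70% in eWAT 1, 2 and 3. Its partner Fbp1, the liver and kidney enzyme, stood at 237, 1.62 and 17.5 CPM in the same libraries, in the order of their albumin counts. Across the pairs, the muscle form was beyond 2-fold in quadriceps for 28 of 28 and the wide form beyond 2-fold in eWAT for 22 (21 without eWAT 1, where Ampd2 and Ppp1r3b were lost and Pfkl gained), with the other 6 (Eno1, Pfkl, Cox7a2, Atp2a2, Actb and Slc16a1) not past that test.

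**Figure D3:**
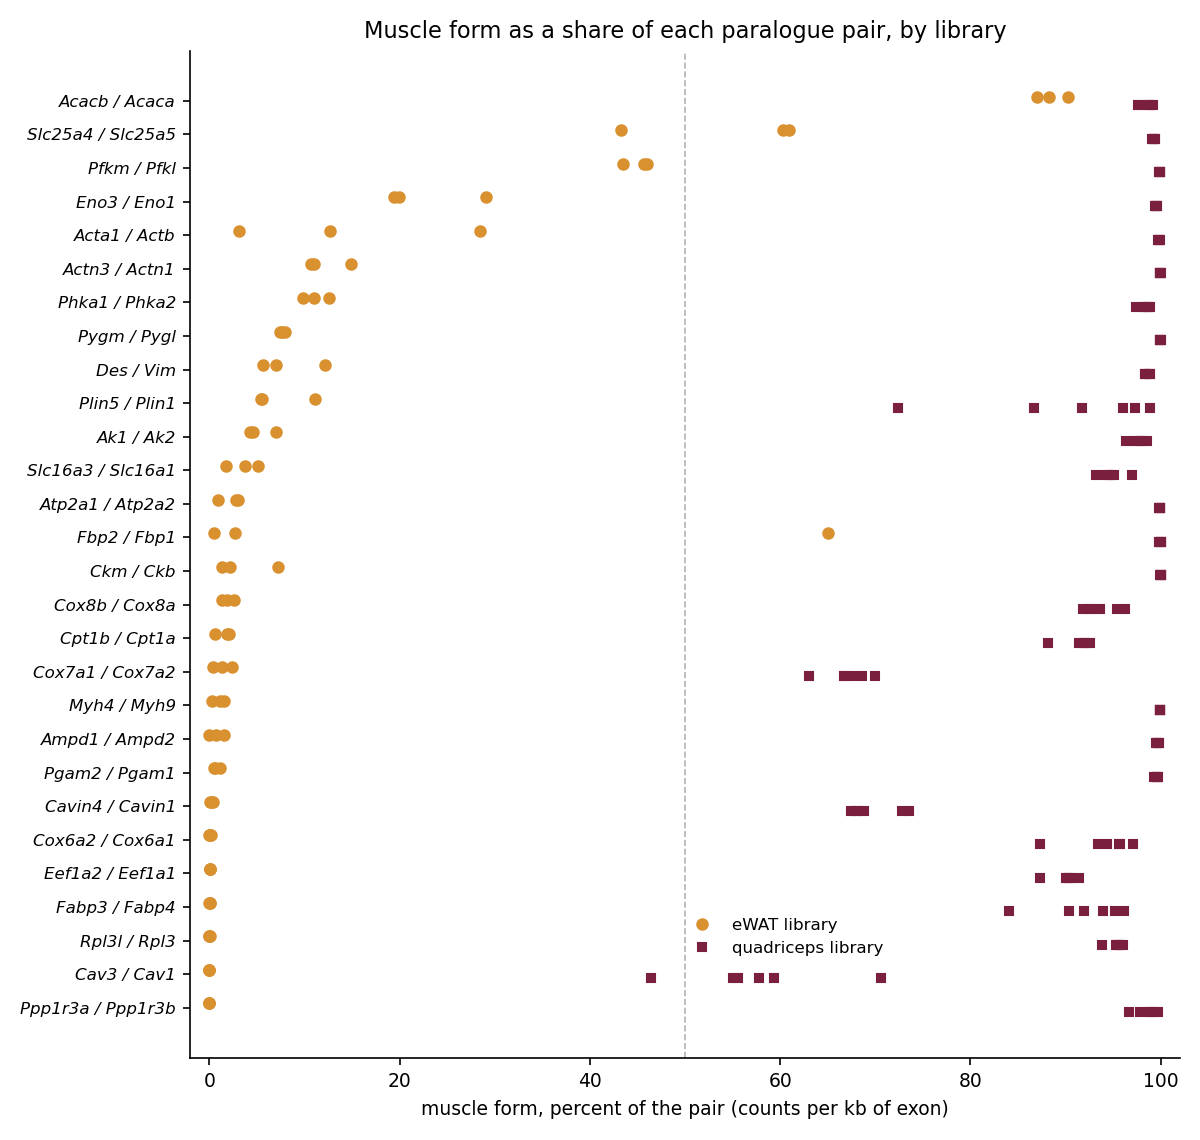
Share of the muscle form in each of 28 paralogue pairs (muscle form named first), in percent of the pair's counts per kb of exon, with circles for the 3 eWAT libraries and squares for the 6 quadriceps libraries. For all 28 pairs the squares lie to the right of the circles; in eWAT, Acacb holds the highest shares and Fbp2 ranges from 0.460% to 65.0%, and Cav3 and Cox7a1 the lowest in quadriceps.

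The largest differences on the fat side were not those of adipocyte genes. The 10 protein-coding genes with the largest log2 difference beyond 2-fold, averaging a log2 CPM of 6 or more, were Apoa1, Serpina1b, Mug1, Hpx, Serpina1e, Cyp4a10, Ahsg, Serpina1a, Alb and Ttr, plasma proteins and enzymes made by hepatocytes. Alb, albumin (5:90460897-90476602), stood at 8907, 49.2 and 841 CPM in eWAT 1, 2 and 3 and at 0 to 1.34 CPM in quadriceps. Apoa1, the main protein of high-density lipoprotein, stood at 2986, 16.0 and 277 CPM against 2 counts over the quadriceps libraries. Its log2 difference was 14.08 ± 2.01, with a 95% interval of 9.36 to 18.8. The levels of these 10 genes were set mainly by eWAT 1. The summed level of 19 hepatocyte markers, leaving out Cyp2e1, was 23550, 123 and 2038 CPM in the 3 fat libraries and 0.393 to 3.69 CPM in quadriceps. Cyp2e1, which the fat libraries held at 3879, 2230 and 3422 CPM, spanned a far narrower range in the same order. The hepatocyte list had a median of 12.47 with eWAT 1 (11.59 with the 4 genes without a quadriceps count at the floor) and 9.25 without it. Of 19 tested members 15 were beyond 2-fold, and those near 0 in quadriceps passed the count filter only through eWAT. Serpina1 genes are near-identical copies, so reads may be split among them. The part of liver RNA in the other results was not tested beyond the fit without eWAT 1, in which all 176 reported genes chosen by the naming rule kept their direction and their side of the threshold on any difference. On the 2-fold test 171 kept their call, Ampd2, Ppp1r3b and Prx lost it, and Cox7a2 and Pfkl gained it. Ppp1r3b, a glycogen-targeting subunit also made in liver, moved from 2.24 to 1.08.

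Among the 370 protein-coding genes beyond 2-fold that reached at least 64 CPM in each of the 3 fat libraries, a limit set after the values were seen, the largest differences included those of Rbp4, Adrb3, Nnat, Hp, Sncg, Retn, Trf, Serpina3n and Adipoq. Rbp4, the retinol carrier, stood at 727, 154 and 281 CPM in eWAT against 0.184 to 4.54 CPM. It is also abundant in liver and was highest in eWAT 1. Retn, the hormone resistin, was even across the fat libraries, at 708, 676 and 708 CPM against 1.47 to 23.6 CPM. Serpina3n, a secreted protease inhibitor, stood at 214, 184 and 176 CPM against 1.83 to 4.15 CPM, with the smallest adjusted p of the genes just named (5.93 ± 0.19, edgeR adjusted p = 2.32e-12).

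Of the markers of other cells of a fat pad, those of macrophages, mesothelium and blood were higher in eWAT, and those of stromal and vascular cells less uniformly so. Macrophage genes were beyond 2-fold in eWAT for 20 of 21 tested members (median 2.42), and their summed level was 452, 670 and 775 CPM in eWAT and 103 to 137 CPM in quadriceps. C1qa, a complement subunit made by tissue macrophages, stood at 70.4, 84.6 and 96.9 CPM against 7.10 to 11.8 CPM (3.14 ± 0.15, edgeR adjusted p = 2.41e-10). Of 12 mesothelial genes 9 were tested, and all 9 were beyond 2-fold in eWAT (median 6.99, 5.93 with genes at the floor, and 5.36 without eWAT 1). Genes near 0 in quadriceps passed the count filter only through eWAT, so that count is not read as a result. The whole list summed to 151.3, 36.6 and 101.8 CPM in eWAT and to 0.552 to 2.37 CPM in quadriceps. Wt1, a factor of the mesothelium that covers visceral fat, had 287 counts in eWAT and 1 in quadriceps, a ratio of 146.6 with a 95% counting interval of 26.1 to 5810. Erythroid genes were beyond 2-fold in eWAT for 6 of 6 (median 3.54), or 5 of 6 without eWAT 1, with Hbb-bs, adult beta-globin, at 678, 388 and 808 CPM against 27.5 to 79.97 CPM. Extracellular matrix genes were beyond 2-fold in eWAT for 11 of 27 (median 1.26), endothelial genes for 5 of 14, fibroblast and preadipocyte genes for 4 of 13 and smooth muscle genes for 3 of 11, with 1 of the smooth muscle list, the channel subunit Abcc9, higher in quadriceps at -3.22 ± 0.16. Under library totals these counts were 23, 13, 10 and 9. Without eWAT 1 they were 14, 6, 4 and 3, and 1 endothelial gene was then beyond 2-fold in quadriceps. Of 14 lymphocyte genes 7 were tested, and 6 were beyond 2-fold in eWAT. Those near 0 in quadriceps passed the count filter only through eWAT, so that count is not read as a result. The list sums overlapped, at 65.9, 184.7 and 48.9 CPM in eWAT and 31.8 to 91.1 CPM in quadriceps. Of 11 genes of neutrophils and mast cells 5 were tested, and 2 were beyond 2-fold in eWAT, all at low levels. The same limit of the filter applies, so that count is not read as a result either.

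The 22 epididymal genes summed to 12.98, 7.89 and 27.6 CPM in eWAT and at most 0.920 CPM in quadriceps, and 3 of them passed the count filter; they are close to the rule that chose the libraries and are not read as a result. Of 10 spermatid genes 1, Odf2, passed the filter, at a level that overlapped between the groups. Nerve genes were beyond 2-fold in quadriceps for 2 of 7 tested, with a median of 0.14, or for 1 without eWAT 1. Brown and beige fat genes were beyond 2-fold in quadriceps for 4 of 7 tested, namely Tbx1, Cox8b, Cidea and Ppargc1a, of which Cox8b and Ppargc1a are also muscle genes and Cidea lost that call without eWAT 1. Factors of body position split by gene, with 7 of 19 tested beyond 2-fold in eWAT and 6 in quadriceps (median 0.79). Hoxc8 stood at 69.8, 64.7 and 74.5 CPM in eWAT and 1.15 to 4.32 CPM in quadriceps (4.45 ± 0.24), while Tbx15, a factor of glycolytic fibres, was at most 0.264 CPM in eWAT and 226 to 329 CPM in quadriceps (-11.17 ± 0.56).

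**Figure D4:**
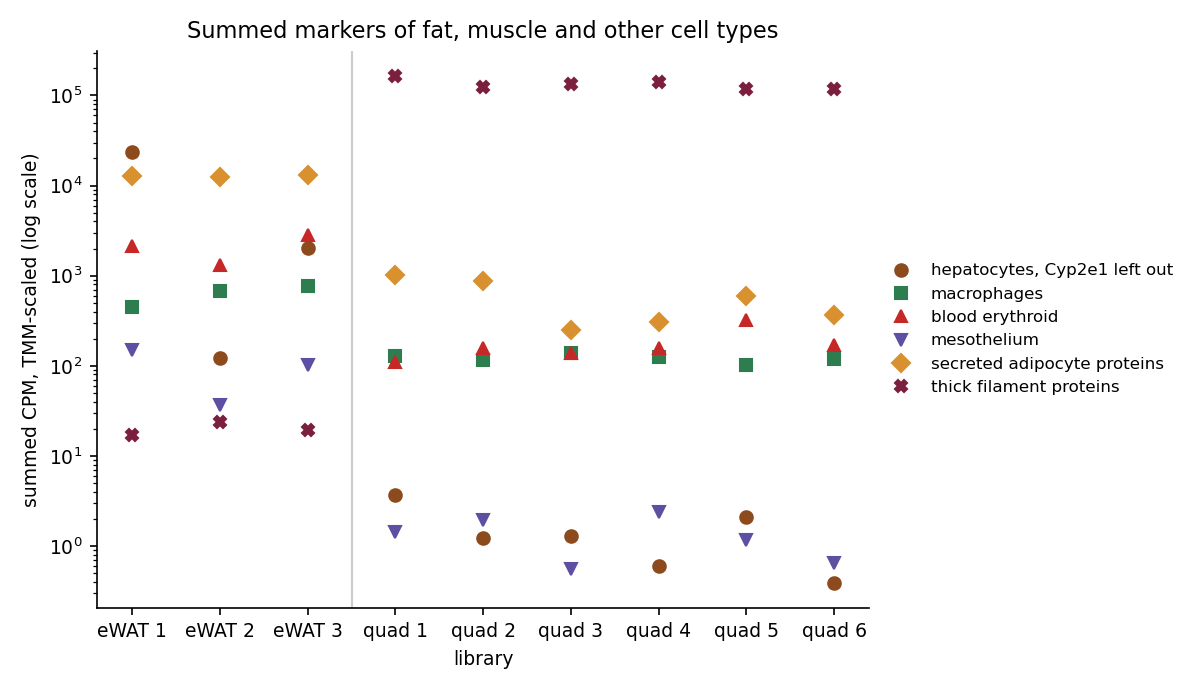
Summed CPM (TMM-scaled, log axis) of 6 marker lists in each of the 9 libraries. Hepatocyte markers without Cyp2e1 fall from 23550 CPM in eWAT 1 to 123 CPM in eWAT 2, while secreted adipocyte proteins lie between 12370 and 13000 CPM in the 3 fat libraries and between 250.2 and 1008 CPM in quadriceps.

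The 5 genes with the narrowest 95% interval among those within 2-fold were Tmed9, Ehmt2, Slc25a28, Sel1l and Laptm4a. Tmed9, a carrier protein of the early secretory pathway, stood at 47.3, 47.6 and 48.8 CPM in eWAT and at 44.3 to 49.9 CPM in quadriceps (0.06 ± 0.11). Ehmt2, a histone methyltransferase, differed by 0.51 ± 0.11, a called difference inside 2-fold. With library totals the same genes were 1.10 to 1.95 higher in eWAT on the log2 scale.

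The same tissue contrast was made in libraries that share none with the comparison above. After juvenile high-fat diet (HFD, 45% of energy as fat in the same week), 3 eWAT libraries had Gpx5 below 100 CPM (HFD fasted replicate 4 and HFD fed replicates 2 and 3) and were set against 10 quadriceps libraries, with feeding state as a covariate. Of 13227 genes tested, 4512 (34.1%) were higher in eWAT and 3771 (28.5%) higher in quadriceps. HFD fasted replicate 4 was rich in liver transcripts, with a hepatocyte sum, here including Cyp2e1, of 155100 CPM against 1020 and 1908 CPM in the fed libraries. With Cyp2e1 included, the sums after CD were 27430, 2353 and 5460 CPM in eWAT 1, 2 and 3. The droplet protein sum of HFD fasted replicate 4 was 1204 CPM against 5984 and 4598 CPM in the fed libraries. HFD fed replicate 3 held 420.0 CPM of thick filament transcripts. Of the 2741 genes beyond 2-fold in eWAT after CD and tested in both, 99.1% had the same sign after HFD and 88.3% were also called, and of the 2516 in quadriceps 99.4% and 91.8%. Without HFD fasted replicate 4, when both fat libraries were fed and feeding was estimated from muscle alone, the shares were 98.8% and 87.3% of 3040 genes and 98.9% and 94.4% of 2526.

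Values of single genes moved with the makeup of those libraries. Adipoq differed by 7.04 ± 1.31 and, without HFD fasted replicate 4, by 7.96 ± 1.40. Alb, at 12.47 after CD, was at 10.76 and fell to 3.27 without that library. Myh4 differed by -10.46 against -16.26 after CD, beside the muscle transcripts of HFD fed replicate 3. With all 3 HFD fat libraries, Pdgfb was the 1 gene beyond 2-fold after CD and called in the opposite direction after HFD, at 1.25 and -1.06, and it was named for that reason. Without HFD fasted replicate 4, 3 of the genes on the fat side and 3 on the muscle side were called in the opposite direction.

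**Figure D5:**
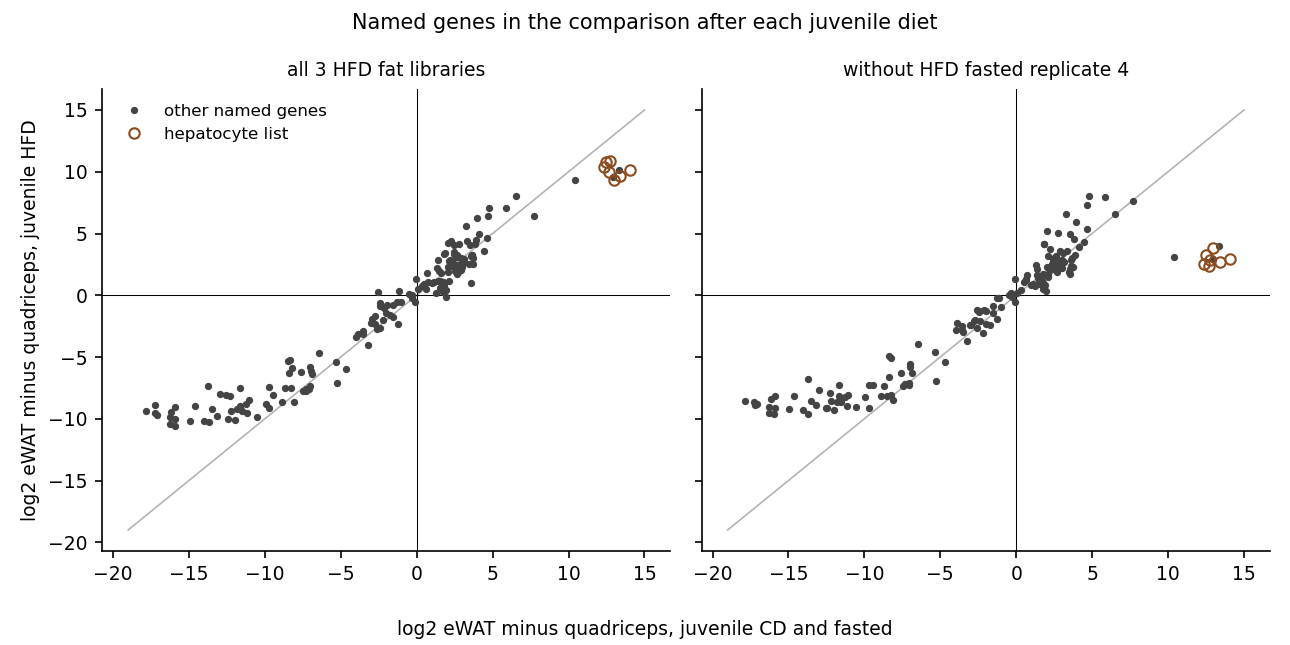
Log2 difference between eWAT and quadriceps of 173 named genes after juvenile CD (x axis) and after juvenile HFD (y axis), with all 3 HFD fat libraries on the left and without HFD fasted replicate 4 on the right; the diagonal marks equal differences and open circles are 7 genes of the hepatocyte list. The open circles drop to between 2 and 4 on the right, and muscle genes lie near -10 on the y axis where they reach beyond -15 on the x axis.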

How the data were processed

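Libraries of poly-A RNA were read on the Ion Torrent Proton. The deposited files hold integer read counts per Ensembl gene, not normalized. The genome was GRCm38 and the tools were HTSeq 0.6.0, TopHat2 2.1.0 and Bowtie2 2.2.5, per the submitters' processing notes. The sources used here do not state the annotation release or strand setting, so overlapping genes may share reads. The 5 summary lines of each file (reads on no gene, ambiguous, low quality, unaligned or not unique) were left out, so that the gene counts were 34.5% to 39.1% of all reads listed in eWAT and 22.7% to 30.6% in quadriceps. Of 45232 identifiers, 44585 had a symbol in GENCODE M21. No libraries held identical values. Reads carried no molecular identifiers, so counting intervals and floors cover counting error only. Counting intervals pool the reads of a tissue and leave out the spread between its libraries.

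Genes were filtered with filterByExpr by tissue, scaled by TMM (factors 1.85 to 2.01 in eWAT, 0.663 to 0.787 in quadriceps) and fitted with 1 mean per tissue by edgeR 4.0.16 (R 4.3.3), with robust quasi-likelihood tests, glmTreat for the 2-fold test, and two-sided Benjamini-Hochberg adjusted p over all tested genes at 0.05. The common biological coefficient of variation was 0.274, and 0.352 in the HFD fit. Fits were checked on simulated counts in which both tissues had the quadriceps means apart from a small set of changed genes. That setting lacks the shift in makeup between these tissues, so it cannot speak to the scaling here. Alternatives were other scalings, no filter, DESeq2 1.42.0, limma 3.58.1 voom with a variance per tissue, all 6 eWAT libraries, and leaving out each library.

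The libraries, 40 gene lists and 28 pairs were chosen with earlier results of these data known. Genes were named by rule: the 4 markers, the 10 largest protein-coding differences per direction averaging a log2 CPM of 6 or more, the 3 smallest p per list, both genes of each pair, Gpx5 and Alb, and the 5 narrowest intervals within 2-fold. Promoters are from RefSeq. Other genes named in the text were chosen after their values were seen. Some genes are not reported here.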

Additional observations from a re-analysis of the deposited data

Results flagged for a closer look

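Within the 6 quadriceps libraries, 2 of 44 summed list and control values stood apart, by the gap to the nearest library relative to the range; chance alone sets about 1 in 20 apart. The summed level of glycolysis genes in quadriceps replicate 1 was 85220 CPM against 61650 to 69960 CPM in the other 5 libraries. The summed level of erythroid genes in quadriceps replicate 5 was 319.7 CPM against 110.0 to 170.5 CPM in the others.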

How the results depend on the processing

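Of the settings tried, library totals alone moved a count of calls over all tested genes by over 1.5 times. With library totals in place of TMM, 10346 genes were called higher in eWAT and 1606 in quadriceps, 7720 and 991 beyond 2-fold, and 2018 lay within 2-fold. Beyond 2-fold, the other settings gave 2618 (voom) to 3981 (upper quartile) genes in eWAT and 1830 (all 6 eWAT libraries) to 2598 (no filter) in quadriceps. Leaving out each library gave 5257 to 5449 and 4615 to 4866 genes called, 3185 to 3389 and 2420 to 2584 beyond 2-fold, and 2916 to 3160 within 2-fold, and after HFD 4277 to 4955 and 3599 to 4183. Of 176 reported genes chosen by the naming rule, 6 changed sign with library totals: Me1 (0.15), Odf2 (1.36), Acacb (0.18), Cox7a2 (0.29), Atp2a2 (1.31) and Slc16a1 (0.95). Odf2 and Atp2a2, which were not called, also changed sign with upper-quartile scaling (0.20 and 0.16), with all 6 eWAT libraries (0.61 and 0.77), and without eWAT replicate 3 or quadriceps replicate 2; leaving out each library gave -0.198 to 0.044 for Odf2 and -0.235 to 0.108 for Atp2a2. The cause was not tested. No paired analysis was possible because the labels carry no replicate numbers that fat and muscle share. The 3 fat libraries limit what the spread in eWAT can show.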

Other observations

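The quadriceps libraries differed among themselves in 2 groups of transcripts. Adipocyte transcripts ran from 6.07 CPM of Adipoq, 29.3 CPM of Cfd and 2.39 CPM of Plin1 in quadriceps replicate 3 to 76.5, 699 and 33.8 CPM in replicate 1 (Plin1 was highest in replicate 2, at 43.0 CPM), and the summed secreted adipocyte proteins from 250.2 to 1008 CPM. Even the highest of these sums lay below the 12370 CPM of the lowest fat library.

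Transcripts of slow and oxidative fibres did not follow that order. Mb, myoglobin, stood at 829, 2589, 1919, 3003, 1517 and 3064 CPM in quadriceps replicates 1 to 6, and Tnnc1, the troponin C of slow fibres, at 1.14, 27.9, 2.39, 14.6, 3.45 and 20.7 CPM. Replicate 1, lowest in both, had the highest level of the fast heavy chain Myh4, at 122100 CPM against 75450 to 92250 CPM in the others, and the highest glycolysis sum. Ucp1, the uncoupling protein of brown fat, was listed at 0 in the 3 fat libraries and reached 18.4 CPM in quadriceps replicate 2, where Cidea, another brown fat transcript, stood at 75.7 CPM against 2.94 to 19.8 CPM in the other 5. All these genes were chosen after their values were seen.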
